A study of Mus musculus with 18 samples.

Results

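The Hox genes encode homeodomain transcription factors, and the 38 listed mouse Hox genes measured here were taken as a family by their symbols. All 38 were among the 27179 genes counted. They lie in 4 clusters, with 10 members in HoxA (chromosome 6, 98.5 kb from the first to the last member), 10 in HoxB (chromosome 11, 174 kb), 9 in HoxC (chromosome 15, 116 kb) and 9 in HoxD (chromosome 2, 96.9 kb). The number in each name is the paralog group, and genes of low number are at the 3′ end of each cluster. In the embryo the clusters open from that end, so that low-numbered genes are expressed from the hindbrain and neck downwards, and high-numbered genes only towards the tail and the limb tips. Fibroblasts of adult tissues keep such an order, so that the Hox genes they express differ with the place in the body they come from. In the lung, Hoxa5 and Hoxb5 are known from the mesenchyme of the developing organ, and loss of Hoxa5 disturbs the trachea and the lung.

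RNA was sequenced from 6 sorted populations of untreated C57BL/6 mice, with 3 libraries each. From the trachea of mice 1 to 3 came NGFR-positive basal stem cells (BSCs) and NGFR-negative non-basal cells, which form the luminal layer. From the lungs of mice 4 to 6 came 3 epithelial gates and the EpCAM-negative cells, which hold what is not epithelium. The epithelial gates were EpCAM+ CD104+ CD24hi airway cells (rich in ciliated cells), EpCAM+ CD104+ CD24lo airway cells (rich in club cells) and EpCAM+ CD104lo alveolar cells. The study's methods state male mice, dispersed the lungs with collagenase and peeled the tracheal epithelium after dispase, so organ, mouse, dissociation and depth go together and cannot be told apart. Each population is bulk RNA of a gate, in which fewer expressing cells and less RNA per cell cannot be told apart. The libraries held 29317215 to 32993621 counted reads in the trachea and 9811503 to 13208897 in the lung. Levels are given in RPKM (reads scaled to gene length and, after TMM normalisation, to library size), which allows genes of different length to be compared.

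The labels were checked against marker genes. Epcam was at 86.4 to 121 RPKM (group means) in the 5 epithelial gates and at 1.76 in EpCAM-negative cells. Krt5, a basal keratin, was at 1540 RPKM in BSCs, and Foxj1, the regulator of motile cilia, at 626 in CD24hi cells. The club cell secretoglobin Scgb1a1 was at 599000 RPKM in CD24lo cells, which also held Krt5 at 42.8, and Sftpc of alveolar type 2 cells was at 156000 in alveolar cells. The tracheal gates each held markers of the other. Krt5 was at 120 RPKM in non-basal cells. Scgb1a1 was at 1310 in BSCs and 60200 in non-basal cells, and the club cell gene Cyp2f2 at 7100 and 14300. The EpCAM-negative libraries held fibroblast genes, with Col1a1 at 1100 and Tcf21, a factor of lung fibroblasts, at 167 RPKM, and also the endothelial gene Pecam1 at 47.1. Transcripts of secretory epithelium were found there too, with Scgb1a1 at 2150 and Sftpc at 636 RPKM. The leucocyte gene Ptprc was at 4.98.

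Of the 38 members, 15 passed the filter on low counts (a CPM above 0.2 in at least 3 libraries, CPM being counts scaled to library size) and were tested, and 23 were not (4 in HoxA, 3 in HoxB, 7 in HoxC and all 9 in HoxD). Hoxb8 passed through the EpCAM-negative libraries alone, so a difference in that population was set by the filter. Hoxa6 had libraries above the minimum in 2 groups, EpCAM-negative and alveolar cells. Too few alveolar libraries were above it for Hoxa6 to pass without the EpCAM-negative libraries, so its difference there was set in part by the filter. The 15 tested members were Hoxa2 to Hoxa7, Hoxb2 to Hoxb8, Hoxc4 and Hoxc5. The other 23 were close to silent: 13 had no read in any of the 18 libraries, and 20 had 5 reads or fewer in all libraries together. The 9 HoxD genes gave 10 reads in total, and the 16 members of paralog groups 9 to 13 gave 20. The adult respiratory tract thus carried reads of the 3′ parts of HoxA and HoxB, of the 3′ end of HoxC, and almost none of HoxD.

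**Figure D1:**
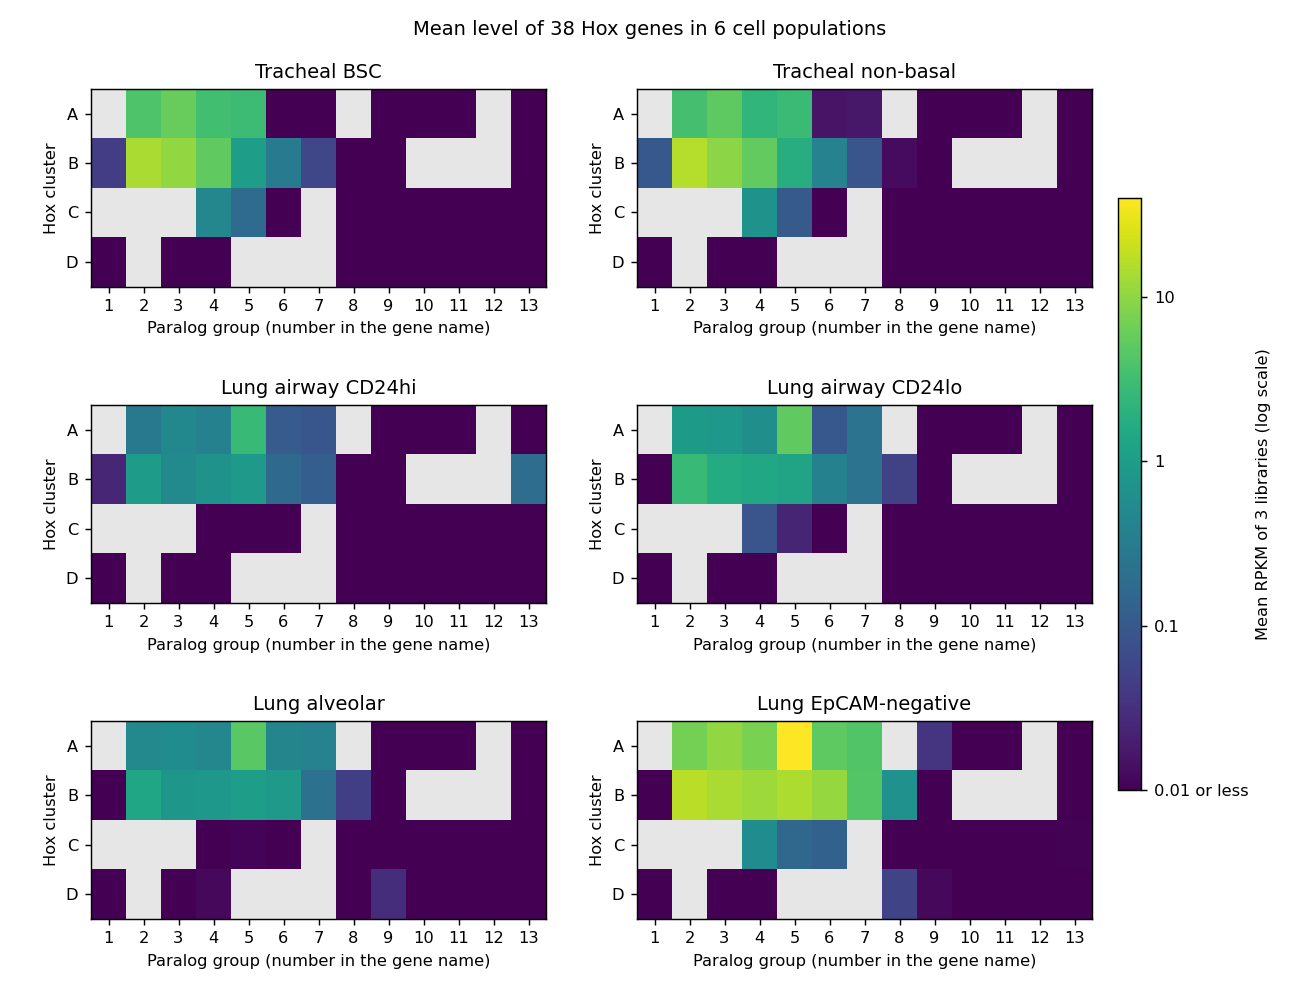
Mean RPKM of 3 libraries (colour, log scale, values at or below 0.01 in the darkest shade) for the 38 Hox genes, drawn by cluster (rows) and paralog group (columns) in the 6 populations; grey squares have no listed gene. In BSCs Hoxa5 stood at 2.92 RPKM and its neighbour Hoxa6 at 0, whereas in EpCAM-negative cells the 2 genes stood at 39.9 and 5.05.

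Both tracheal populations expressed an anterior set of Hox genes. Hoxb2, which patterns the hindbrain, led the set, with 14.1, 14.1 and 13.1 RPKM in the 3 BSC libraries and 18.5, 14.7 and 14.5 in the non-basal libraries. Hoxb3 followed at 10.5, 10.1 and 10.2 RPKM in BSCs and 10, 9.07 and 8.94 in non-basal cells. The 2 genes together made up about the same part of the Hox RNA in each of these libraries, Hoxb2 28.6 to 34.4% and Hoxb3 18.6 to 22.3% of the summed Hox RPKM. Hoxa3, needed for the thymus and parathyroid, was at 6.02, 5.82 and 5.36 RPKM in BSCs and 5.68, 5.08 and 4.49 in non-basal cells. Hoxb4, known for expanding blood stem cells when overexpressed, was at 5.55, 5.36 and 5.02 in BSCs and 6.05, 5.37 and 4.96 in non-basal cells. Neither gene separated the tracheal populations, whose ranges overlapped.

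Further HoxA genes were expressed at lower levels in the trachea. Hoxa2, which sets the identity of a pharyngeal arch, was at 3.87, 4.04 and 4.30 RPKM in BSCs and 3.57, 3.51 and 3.16 in non-basal cells. Hoxa4 was at 3.33, 3.36 and 3.14 in BSCs and 2.88, 2.11 and 2.17 in non-basal cells, and Hoxa5 at 2.82, 3.02 and 2.92 against 3.14, 2.58 and 2.79. For Hoxa2 and Hoxa4, as for Hoxb3, every BSC library lay above every non-basal library. For Hoxb2, Hoxb5 and Hoxc4 every non-basal library lay above every BSC library, and for Hoxa5 the ranges overlapped. None of these genes had an adjusted p under 0.05 between the tracheal populations (edgeR). The share of all genes without overlap was not counted. In HoxC only the 3′ end gave reads. Hoxc4, a gene of the neck region that also acts in B cells, was at 0.473, 0.502 and 0.441 RPKM in BSCs and 0.842, 0.549 and 0.723 in non-basal cells, and Hoxc5 had 21, 12 and 19 reads in BSCs and 13, 7 and 5 in non-basal cells. Hoxb1, a gene of one hindbrain segment, fell outside the naming rule and is given because it had reads almost only here: 6, 4 and 0 in BSCs and 8, 6 and 4 in non-basal cells, against 1 read in each of 2 CD24hi libraries.

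In HoxA the tracheal set ended between Hoxa5 and Hoxa6, genes that are separated by 270 bases. Hoxa5 gave 186, 205 and 194 reads in the BSC libraries. Hoxa6 gave 0, 0 and 0 reads in the same libraries, and 0, 0 and 1 in the non-basal libraries. Hoxa7 gave 0, 0 and 0 reads in BSCs and 0, 1 and 2 in non-basal cells. Hoxa9 had no BSC read either. Since 3 reads over the group would have been 0.0402 RPKM for Hoxa6 and 0.0144 for Hoxa7, EpCAM-negative cells, at 5.05 and 4.26 RPKM, were at least 126-fold and at least 296-fold higher than BSCs. HoxB had no such edge in the trachea and graded down instead: Hoxb5 was at 1.29, 0.933 and 0.834 RPKM in BSCs, Hoxb6 at 0.409, 0.272 and 0.278, Hoxb7 at 0.0896, 0.0435 and 0.0445, and Hoxb8 had 2, 0 and 0 reads.

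The lung EpCAM-negative cells expressed Hoxa2 to Hoxa5, Hoxb2 to Hoxb7, Hoxc4 and Hoxc5 as the trachea did, not Hoxb1, which had no read there, and also genes further along the clusters. Hoxa5 led there, with 37.4, 40.1 and 42.2 RPKM, and Hoxb2 followed with 16.7, 16.6 and 17.2. Hoxa6 was at 5.05, 5.08 and 5.01 RPKM and Hoxa7, a gene of the trunk that is best known from leukaemia, at 4.24, 3.85 and 4.68. The next HoxA gene, Hoxa9, 4523 bases further on, had 0, 3 and 0 reads. In HoxB, Hoxb6 (expressed in embryonic lateral plate mesoderm) was at 9.96, 10.1 and 11.9 RPKM, Hoxb7 (used to mark the collecting duct of the kidney) at 4.62, 4.16 and 4.32, and Hoxb8 at 0.668, 0.531 and 0.777. Hoxb9, separated from Hoxb8 by 2805 bases, had no read in any of the 18 libraries. HoxC reached Hoxc6, with 3, 2 and 3 reads in EpCAM-negative cells and none elsewhere. The EpCAM-negative set thus ended after Hoxa7, Hoxb8 and Hoxc6, while the BSC set ended after Hoxa5, Hoxb7 and Hoxc5 if single libraries with 2 reads are left aside.

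The promoter windows of the genes at these edges are shown because the steps in level fall between them. They are RefSeq windows of 250 bases before to 50 after an annotated start, on GRCm38.p6, 5′ to 3′ on the strand of the gene: Hoxa5 (chr6:52204538-52204837, minus strand), the last HoxA gene of the trachea, Hoxa6 (chr6:52208623-52208922, minus), the first without BSC reads, Hoxa7 (chr6:52218524-52218823, minus), the last HoxA gene of EpCAM-negative cells, Hoxa9 (chr6:52227321-52227620, minus), beyond it, and Hoxb8 (chr11:96281655-96281954, plus), the last HoxB gene of EpCAM-negative cells. Capitals mark matches on either strand to TGATTNAT (a PBX-HOX site), AGGTCA (a nuclear receptor half-site, as used by retinoic acid receptors) or TTTATNG (a CDX site), and the rest is in lower case.
Hoxa5: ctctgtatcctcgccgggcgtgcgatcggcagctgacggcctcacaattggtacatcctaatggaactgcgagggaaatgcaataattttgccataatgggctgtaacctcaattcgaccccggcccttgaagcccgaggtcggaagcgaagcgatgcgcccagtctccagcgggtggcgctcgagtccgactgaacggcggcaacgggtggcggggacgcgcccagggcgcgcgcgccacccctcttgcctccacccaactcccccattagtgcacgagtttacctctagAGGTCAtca
Hoxa6: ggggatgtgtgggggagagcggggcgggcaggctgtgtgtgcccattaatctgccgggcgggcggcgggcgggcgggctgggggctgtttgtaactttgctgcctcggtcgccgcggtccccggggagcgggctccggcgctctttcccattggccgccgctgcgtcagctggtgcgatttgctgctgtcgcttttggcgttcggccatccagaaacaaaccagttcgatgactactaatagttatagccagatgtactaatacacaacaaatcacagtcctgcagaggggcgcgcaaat
Hoxa7: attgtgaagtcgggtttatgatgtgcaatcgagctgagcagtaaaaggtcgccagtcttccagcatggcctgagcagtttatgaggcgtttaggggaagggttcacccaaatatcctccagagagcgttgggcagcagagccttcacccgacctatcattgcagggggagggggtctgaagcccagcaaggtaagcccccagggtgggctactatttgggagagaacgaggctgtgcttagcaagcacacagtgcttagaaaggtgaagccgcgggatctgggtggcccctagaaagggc
Hoxa9: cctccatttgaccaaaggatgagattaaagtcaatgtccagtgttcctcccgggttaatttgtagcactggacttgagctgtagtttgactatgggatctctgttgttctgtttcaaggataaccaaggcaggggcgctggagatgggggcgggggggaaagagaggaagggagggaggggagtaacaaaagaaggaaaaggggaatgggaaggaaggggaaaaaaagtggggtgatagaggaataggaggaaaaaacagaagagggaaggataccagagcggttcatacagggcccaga
Hoxb8: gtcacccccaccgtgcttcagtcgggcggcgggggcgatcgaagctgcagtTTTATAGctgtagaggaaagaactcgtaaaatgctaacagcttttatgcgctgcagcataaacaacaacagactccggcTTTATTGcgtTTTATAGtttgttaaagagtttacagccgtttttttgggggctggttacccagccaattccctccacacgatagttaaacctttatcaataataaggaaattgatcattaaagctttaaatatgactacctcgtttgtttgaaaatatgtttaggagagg

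Of the 38 members 22 had such a window, 24 windows in all. The tested members Hoxa4, Hoxb2, Hoxb3, Hoxb5, Hoxb6, Hoxb7 and Hoxc5 had none. AGGTCA was in 29.2% of these windows and in 16.3% of all 32851 windows, and in this group of edge genes it was in that of Hoxa5 alone. The other genes with it were Hoxb4, Hoxc4, Hoxd3, Hoxd4, Hoxd8 and Hoxd10, so it was also found in HoxD, which was close to silent. TTTATNG was in 8.33% of the Hox windows and in 10.9% of all windows, and the window of Hoxb8 held 3 matches to it. TGATTNAT was in 8.33% of the Hox windows, in 3.22% of all windows and in none of the windows shown. CG dinucleotides numbered 29 in the Hoxa5 window and 26 in that of Hoxa6, against 9 in that of Hoxa7, 4 in that of Hoxa9 and 13 in that of Hoxb8, and the median was 14.5 over Hox windows and 7 over all windows.

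The first comparison asks how the non-epithelial cells of the lung differ from its epithelium in the same mice. Leaving out Hoxb8, whose difference the filter set, all 14 other tested members were higher in EpCAM-negative cells and none was lower, where 35.5% of all 17989 genes tested were higher and 33.4% lower, 69.0% in all (edgeR quasi-likelihood test, adjusted p under 0.05). Among the 14, Hoxa6 had passed the filter only with the EpCAM-negative libraries, so its place in this count was set in part by the filter. The median log2 difference was 3.97 over these 14 members and -0.01 over all genes. Hoxb3 differed with the smallest adjusted p, by 3.97 ± 0.11 (log2 fold change ± SE, adjusted p = 1.74e-15, edgeR), with 14, 13 and 15.3 RPKM in EpCAM-negative cells and 0.38 to 1.76 in the 9 epithelial libraries. Hoxa5, at 37.4 to 42.2 RPKM against 1.42 to 8.49, differed by 3.28 ± 0.23 (adjusted p = 4.31e-10, edgeR). For both genes the lowest EpCAM-negative library was above the highest epithelial one.

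Hoxa6, the gene beyond the tracheal edge in HoxA, had 43 to 46 reads in each EpCAM-negative library and 0 to 4 in each epithelial library. It is given as a level with no test, since it passed the filter only with the EpCAM-negative libraries. Hoxb6 differed by 4.74 ± 0.31 (adjusted p = 1.95e-10, edgeR), and its highest epithelial value, 1.60 RPKM in 1 alveolar library, was below the lowest EpCAM-negative value of 9.96. Hoxc4 had 12, 12 and 18 reads in EpCAM-negative cells and none in the CD24hi and alveolar libraries. A floor of 3 reads over a group would put EpCAM-negative cells at least 14.6-fold above CD24hi cells and at least 11.9-fold above alveolar cells. The remaining named members, Hoxa2, Hoxa3, Hoxa4, Hoxa7, Hoxb2, Hoxb4, Hoxb5 and Hoxb7, differed by 3.47 to 4.52 (adjusted p of 4.12e-09 for Hoxa7 and smaller for the others, edgeR), and in each of them too the groups did not overlap. The share of all genes without overlap was not counted in any comparison, so the lack of overlap is not set against other genes. Hoxb8, at 0.659 RPKM in EpCAM-negative cells and 0.0358 in lung epithelium (means), is given as a level with no test.

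**Figure D2:**
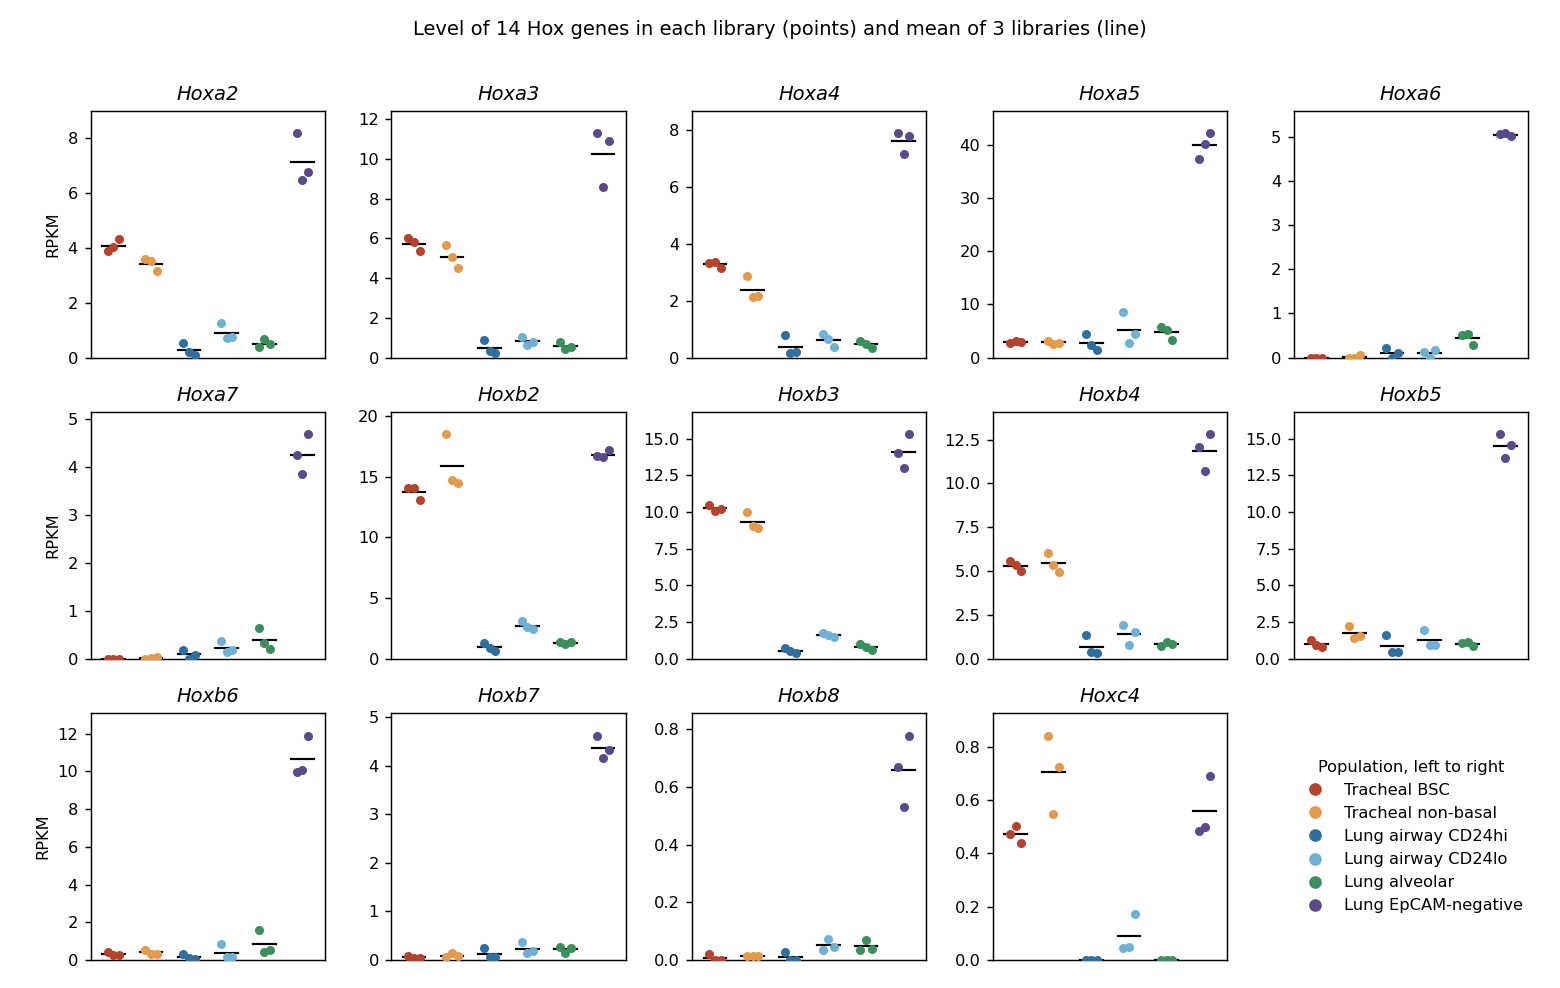
RPKM (vertical axes, each from 0) of the 14 named Hox genes in each of the 18 libraries; points are libraries and lines are means of 3 libraries, with the populations from left to right as in the legend. The EpCAM-negative points are above all lung epithelial points in every panel, and the tracheal points of Hoxb2, between 13.1 and 18.5 RPKM, lie close to the EpCAM-negative points.

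The lung epithelial gates held Hox RNA at a low level and in another order than the trachea. The summed Hox level was 43.9 to 53.8 RPKM in the 6 tracheal libraries, 141 to 155 in EpCAM-negative cells, 13.2, 5.73 and 4.24 in CD24hi cells, 22.2, 11.3 and 13.7 in CD24lo cells and 14.7, 12.4 and 9.72 in alveolar cells. The library of mouse 4 was the highest in all 3 epithelial gates. Hoxa5 was the most abundant member in each of the 9 libraries and took 24.1 to 42.7% of the summed level, against 5.72 to 6.36% in the trachea and 25.2 to 28.5% in EpCAM-negative cells. The RPKM ratio of Hoxa5 to Hoxb2 was 0.169 to 0.222 in the trachea, 1.05 to 4.39 in the lung epithelial libraries and 2.24 to 2.45 in EpCAM-negative cells. The tracheal libraries did not overlap with any lung library in this ratio.

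The share of paralog groups 6 to 8 separated the populations in the same way. It was 0.661 to 1.06% of the summed Hox level in BSCs and 1.08 to 1.17% in non-basal cells. In EpCAM-negative cells it was 16.6 to 17.3%, and in the alveolar libraries 20.8, 12 and 13.4%. The CD24hi libraries had 7.73, 2.97 and 7.43% and the CD24lo libraries 7.85, 4.68 and 5.43%. The airway gates of the lung thus lay between the trachea and the alveolar cells, with no overlap on either side. These shares rest on few reads in the lung epithelium, 3 to 18 in CD24hi, 9 to 27 in CD24lo and 17 to 47 in alveolar libraries. The deeper tracheal libraries had 15 to 25 reads of these groups, and 6 to 9 once thinned to 11971725 reads, the median total of the lung libraries, where the EpCAM-negative libraries had 379 to 476.

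**Figure D3:**
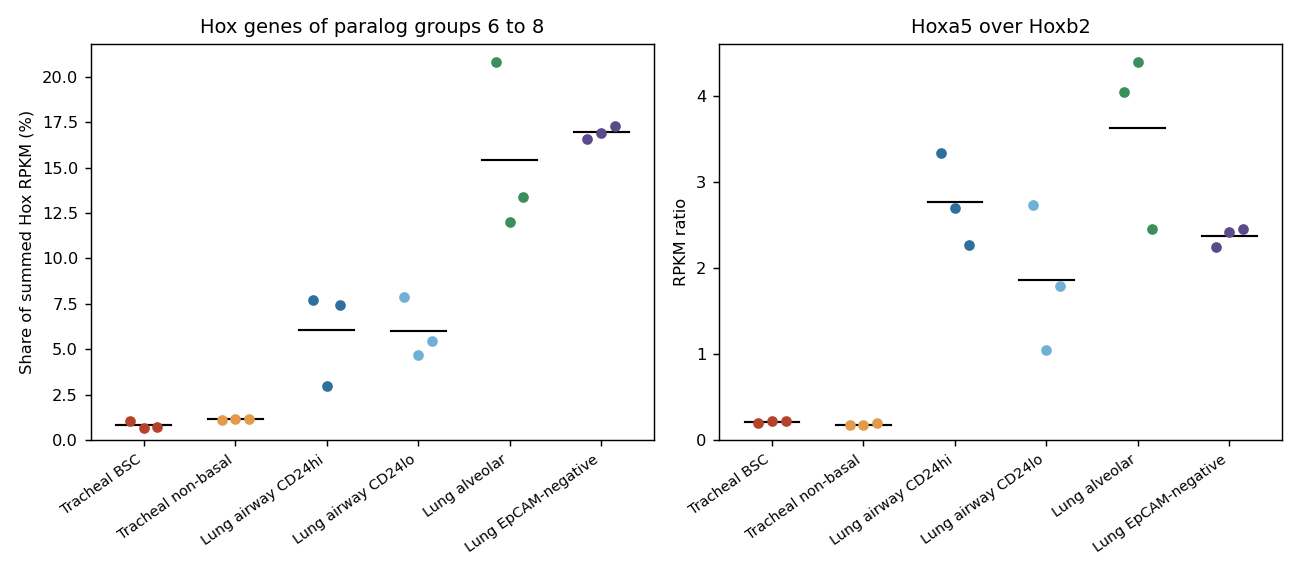
Left, share of the summed Hox RPKM that came from paralog groups 6 to 8 (%); right, RPKM ratio of Hoxa5 to Hoxb2. Points are the 3 libraries of each population and lines their means: the 6 tracheal libraries reach at most 1.17% and 0.222, and every lung library is above them.

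Markers of non-epithelial cells were also present in the lung epithelial gates. For each library the level of each gene was expressed as a percentage of its EpCAM-negative mean. The median over the 12 Hox genes with a group mean of at least 1 RPKM was 7.76, 3.10 and 2.5% in CD24hi, 11.8, 6.59 and 6.88% in CD24lo and 7.50, 7.36 and 5.59% in alveolar cells. Over 9 stromal markers it was 1.15, 0.723 and 0.577%, 3.36, 2.01 and 2.29%, and 4.33, 3.76 and 2.94%. The Hox median was above the stromal median in all 9 libraries, and in CD24hi cells both were highest in mouse 4 and lowest in mouse 6. Over 4 smooth muscle markers it was 1.19 to 3.28%, 4.62 to 9.68% and 2.88 to 4.53%, and over 7 endothelial markers 26.7 to 112%, 46 to 142% and 23.5 to 46.7%, with the highest values in the mouse 4 libraries of CD24hi and CD24lo. Over 3 mesothelial markers it was 13 to 15.8%, 31.3 to 108% and 10.3 to 11.5%. Over 6 blood markers it was 25.7 to 40.2%, 14.8 to 49.6% and 18.3 to 30.7%. The study's methods stain mouse lung cells for CD45, the product of Ptprc, and CD31, the product of Pecam1, and take alveolar cells as negative for both, but the labels of these libraries name neither marker. Pecam1 was at 16.8 to 40.5 and Ptprc at 0.854 to 1.54 RPKM (group means) in these gates. Summed over each whole list, the 9 stromal markers were at 44.7 to 382 RPKM in these gates against 8450 to 8770 in EpCAM-negative cells, the 4 smooth muscle markers at 18.6 to 157 against 1570 to 1670, and the 7 endothelial markers at 55.1 to 328 against 177 to 299. The part of these other cells in the Hox levels of the lung epithelial gates was not tested.

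In the trachea most of the stromal, smooth muscle and endothelial markers were near 0. Mfap4 and Tcf21 had no read in BSCs, Col1a1 was at 0.02 and Col3a1 at 0.0169 RPKM, and the stromal median was at most 0.00268% of the EpCAM-negative mean, where the Hox median was 24.4 to 26.4%. The exception was Dcn, at 161 RPKM in BSCs and 31.9 in non-basal cells, against 17.5 in CD24hi, 104 in CD24lo and 19.1 in alveolar cells. With it the 9 stromal markers summed to 159 to 163 RPKM in BSCs and 29.2 to 47.2 in non-basal cells, and the 4 smooth muscle markers to 2.58 to 3.72 in the 6 tracheal libraries. In non-basal cells the stromal median was 0.047 to 0.177% and the Hox median 18.9 to 26.6%. The 7 endothelial markers summed to 0.215 to 1.23 RPKM in the 6 tracheal libraries. Cartilage markers were at 0 to 0.162 RPKM (group means) in the trachea. Blood markers were not near 0, with Ptprc at 1.16 RPKM in BSCs and 1.69 in non-basal cells. Their median over 6 genes was 19.7 to 22.5% of the EpCAM-negative mean in BSCs and 36.2 to 56.4% in non-basal cells. Of the 3 mesothelial markers, Msln was at 116 and 1240 RPKM in these populations, and Wt1 and Upk3b at 0 to 0.0257. The part of such cells in the tracheal Hox levels was not tested.

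**Figure D4:**
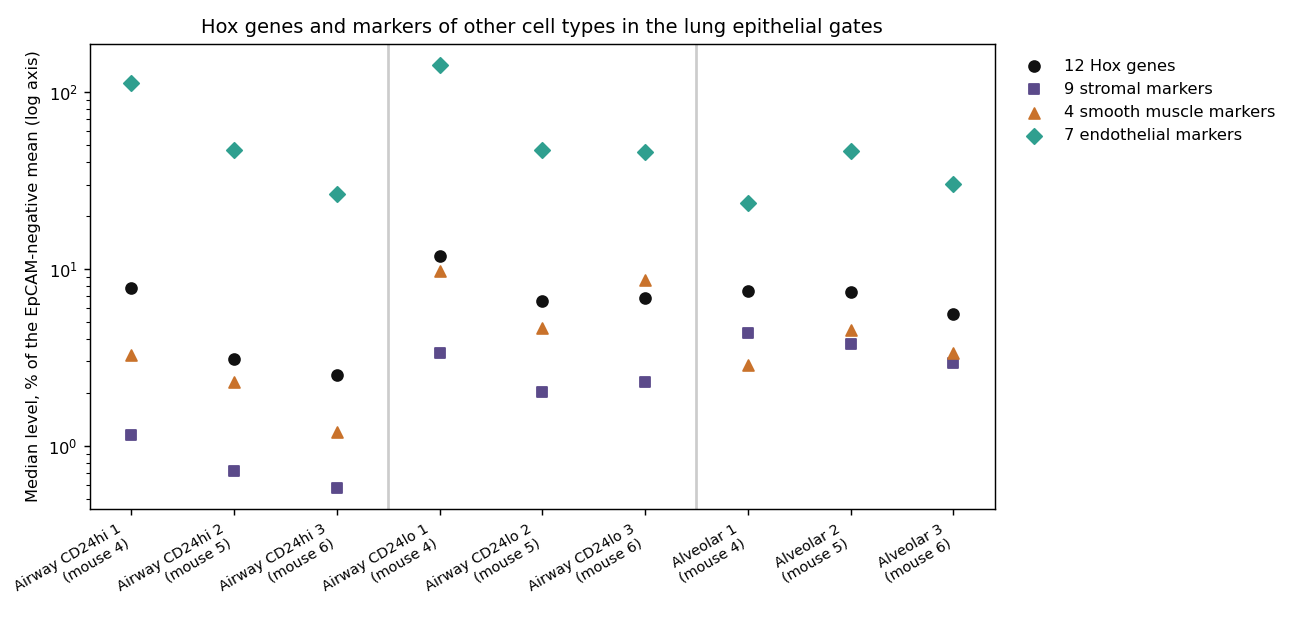
Median level, as a percentage of the EpCAM-negative mean (log axis), of 12 Hox genes and of 3 marker lists in each lung epithelial library, named by gate and mouse. In all 9 libraries the Hox median (2.5 to 11.8%) is above the stromal median and below the endothelial median.

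Tracheal and lung epithelium were then compared. Of the 15 tested members 8 were higher in the trachea and 4 lower, where 33.2% of all genes tested were higher and 39.7% lower (73.0% in all). With library size alone as the scaling, the 5976 higher and 7150 lower of all genes became 6912 and 6228. The higher genes were Hoxa2, Hoxa3, Hoxa4, Hoxb2, Hoxb3, Hoxb4, Hoxc4 and Hoxc5, all of paralog groups 2 to 5, and the lower genes were Hoxa5, Hoxa6, Hoxa7 and Hoxb7. Hoxb3 was higher by 3.45 ± 0.10 (adjusted p = 2.93e-15, edgeR) and Hoxb2 by 3.29 ± 0.10 (adjusted p = 1.5e-14, edgeR), and for each the lowest tracheal library was above the highest lung epithelial library. Hoxc4, with 31 to 49 reads in each tracheal library and 0 to 3 in each lung epithelial library, was higher as well (adjusted p = 3.31e-08, edgeR).

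Among the lower genes, Hoxa7 differed by -4.63 ± 0.69 (adjusted p = 1.89e-05, edgeR) and Hoxa6 by -3.50 ± 0.75 (adjusted p = 0.000567, edgeR), although single lung libraries also had no read and the ranges overlapped. Hoxb7 differed by -1.29 ± 0.37 (adjusted p = 0.00501, edgeR), also overlapped and lost the call without CD24hi replicate 1 (adjusted p = 0.0936, edgeR). Hoxa5 was at 2.58 to 3.14 RPKM in the trachea and at 1.42 to 8.49 in the lung epithelium, a difference of -0.51 ± 0.22 (adjusted p = 0.0401, edgeR). This last call was lost in 12 of 24 alternatives, with differences of -0.63 to -0.32. Hoxb5 (0.35 ± 0.23), Hoxb6 (-0.13 ± 0.39) and Hoxb8 (-1.39 ± 0.72) did not pass the threshold. Hoxb8 did pass with the tracheal libraries thinned (-2.14, adjusted p = 0.0421, edgeR), with limma voom (-1.76, adjusted p = 0.000676) and without BSC replicate 1 (-2.31, adjusted p = 0.0187, edgeR). Hoxb5 passed without CD24hi replicate 1 (0.64, adjusted p = 0.0056, edgeR).

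**Figure D5:**
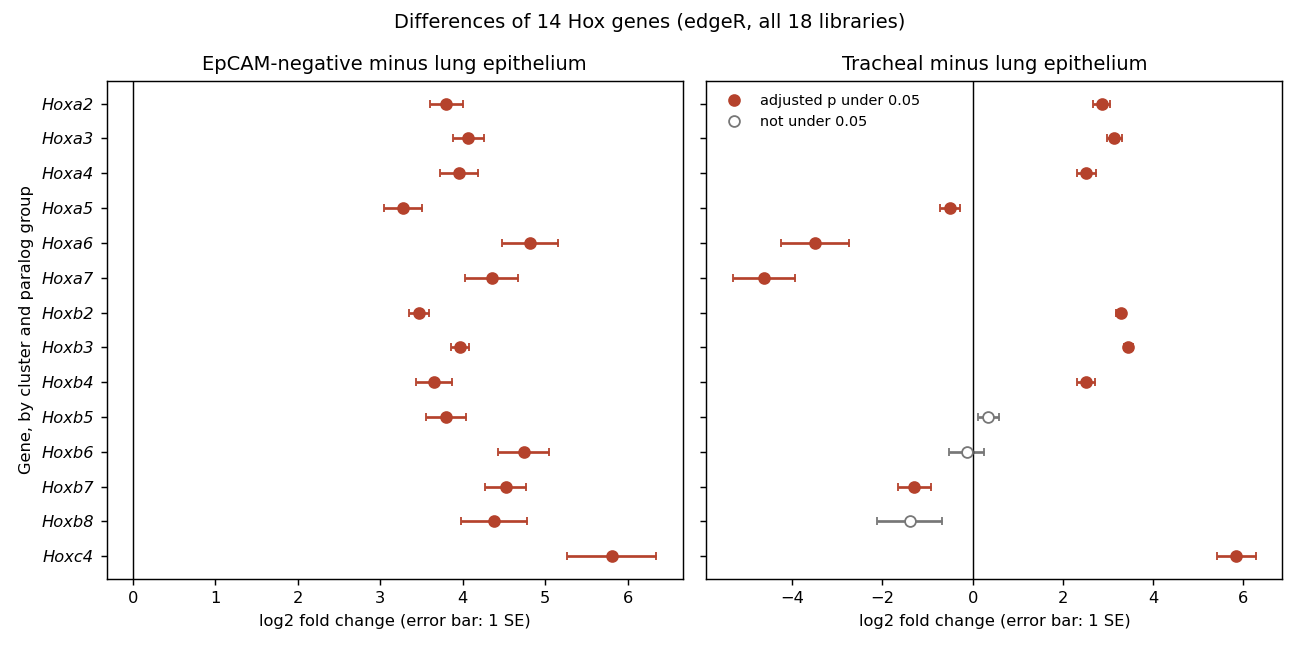
Log2 fold change (horizontal axis) of the 14 named Hox genes, by cluster and paralog group, with 1 SE as error bar, from edgeR on all 18 libraries; filled points have an adjusted p under 0.05. Left, all 14 genes are higher in EpCAM-negative cells, which was set by the filter on low counts for Hoxb8 and in part for Hoxa6. Right, tracheal against lung epithelium, where values run from 3.14 for Hoxa3 to -4.63 for Hoxa7 within HoxA.

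BSCs and alveolar cells are the pair the study is built on. Of the 15 tested members 8 were higher in BSCs and 5 lower, against 30.5% and 35.6% of all genes (66.1% in all). Over all genes 5485 were higher and 6410 lower, and 7924 and 4363 with library size alone as the scaling. Both this comparison and the previous one use the BSC and alveolar libraries, so they are not independent of each other. Hoxb2 was at 13.1 to 14.1 RPKM in BSCs and at 1.40, 1.18 and 1.36 in alveolar cells (3.38 ± 0.18, adjusted p = 1.4e-11, edgeR), and Hoxa3 at 5.36 to 6.02 against 0.762, 0.434 and 0.516 (3.31 ± 0.28, adjusted p = 1.11e-08, edgeR). For Hoxa6 the 3 alveolar libraries had 4, 4 and 2 reads and for Hoxa7 14, 7 and 4, where BSCs, sequenced more deeply, had none, and both genes were lower in BSCs (adjusted p = 8.29e-05 and 1.59e-05, edgeR). Hoxb6 was also lower (0.409, 0.272 and 0.278 against 1.60, 0.418 and 0.535 RPKM, adjusted p = 0.02, edgeR), and this call was lost without BSC replicate 2, without BSC replicate 3 and without alveolar replicate 1, the library of mouse 4 (adjusted p = 0.0539, 0.0515 and 0.414, edgeR), and also with library size alone as the scaling (0.0889). Hoxb7 and Hoxb8 were lower with adjusted p = 0.0137 and 0.0368 (edgeR) on 8 and 2 BSC reads, and Hoxa5 and Hoxb5 did not pass. The call of Hoxb7 was lost without alveolar replicate 1 (adjusted p = 0.0854), with the tracheal libraries thinned to the depth of the lung (0.074) and with library size alone (0.0507), all by edgeR, and the call of Hoxb8 was lost in 7 of 14 alternatives.

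The 2 layers of the tracheal epithelium, BSCs and non-basal cells, came from the same mice, and no tested member passed the threshold between them (edgeR), where 48.2% of all genes did (21.9% higher in BSCs, 26.2% lower). Over all genes 3948 were higher and 4720 lower, and 7780 and 2989 with library size alone as the scaling. At an unadjusted p under 0.05 there were 2 genes, Hoxb5 (-0.77 ± 0.32, adjusted p = 0.0544, edgeR) and Hoxc4 (-0.58 ± 0.26, adjusted p = 0.0903, edgeR), both with the larger mean in non-basal cells. Hoxb5 was at 1.29, 0.933 and 0.834 RPKM in BSCs and 2.23, 1.44 and 1.53 in non-basal cells, groups that did not overlap. With the mouse as a block 1 member passed, Hoxb5 (-0.76, adjusted p = 0.0215, edgeR). DESeq2 called 1 member, Hoxa4 (0.47, adjusted p = 0.0315), and limma voom 3, Hoxa4 (adjusted p = 0.039), Hoxb5 (0.0255) and Hoxc4 (0.0456). Without BSC replicate 1, and without non-basal replicate 1, 1 member passed. The 4 genes with the highest tracheal levels, Hoxb2, Hoxb3, Hoxa3 and Hoxb4, differed between the layers by -0.21 ± 0.13, 0.14 ± 0.12, 0.17 ± 0.20 and -0.04 ± 0.26. Each gate held markers of the other, with Krt5 at 120 RPKM in non-basal cells and Scgb1a1 at 1310 in BSCs. The part of this in the comparison was not tested.

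Within the lung epithelium several Hox genes were lower in CD24hi than in CD24lo cells. Of the 15 tested members 6 were lower in CD24hi cells and none higher, against 27.2% and 27.8% of all genes (55.0% in all). Over all genes 4901 were lower and 4998 higher, and 3233 and 7002 with library size alone as the scaling. Hoxb3 was at 0.73, 0.498 and 0.38 RPKM in CD24hi and 1.76, 1.64 and 1.52 in CD24lo cells (-1.61 ± 0.19, adjusted p = 1.3e-06, edgeR), and Hoxb2 at 1.34, 0.908 and 0.627 against 3.10, 2.59 and 2.47 (-1.50 ± 0.21, adjusted p = 8.99e-06, edgeR). Neither gene overlapped between the gates. Hoxa2 (adjusted p = 0.00197), Hoxc4 (0.00839), Hoxb4 (0.0352) and Hoxa5 (0.0382) were the others (edgeR), of which Hoxb4 and Hoxa5 overlapped and lost the call without CD24hi replicate 2, CD24hi replicate 3 or CD24lo replicate 1, Hoxb4 also without CD24lo replicate 3. Without CD24hi replicate 1, the library of mouse 4, 11 members passed. With only these 6 libraries in the fit 3 passed, and with the mouse as a block Hoxa3 passed as well (-0.81, adjusted p = 0.0291, edgeR). Hoxc4 had 1, 1 and 3 reads in CD24lo cells and none in CD24hi, and its call was lost without CD24lo replicate 3. Markers of other cells were also lower in CD24hi than in CD24lo cells, with Krt5 at 3.59 against 42.8 and Trp63 at 0.934 against 9.08 RPKM, and the summed stromal markers at 44.7 to 120 against 202 to 279 and smooth muscle markers at 18.6 to 49.1 against 74.4 to 157. Their part in the difference was not tested.

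CD24lo cells exceeded alveolar cells in 3 members and were below them in none, against 24.2% of all genes in each direction (48.4% in all). With library size alone as the scaling, the 4347 higher and 4360 lower of all genes became 4483 and 4037. Hoxb2 differed by 1.05 ± 0.21 (adjusted p = 4e-04, edgeR), Hoxb3 by 1.00 ± 0.18 (adjusted p = 0.000205, edgeR) and Hoxc4, on the 5 reads above, had an adjusted p of 0.0169 (edgeR). The lowest CD24lo library was above the highest alveolar library for all 3 genes, and the share of all genes without overlap was not counted here either. Hoxa6 passed as lower in CD24lo cells with limma voom (-1.73, adjusted p = 0.0206) and with the filter at a CPM above 1 (-2.09, adjusted p = 0.0483, edgeR), and Hoxb6 did so without CD24lo replicate 1 (-2.40, adjusted p = 0.0147, edgeR). Without CD24lo replicate 2, 5 members passed, and the call of Hoxc4 was lost without CD24lo replicate 3 or alveolar replicate 1. The CD24lo gate also held basal markers, with Krt5 at 42.8 and Trp63 at 9.08 RPKM against 0.428 and 0.102 in alveolar cells, and the part of these in the difference was not tested.

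CD24hi cells were below alveolar cells in 4 members and above them in none, against 31.4% and 30.5% of all genes (61.9% in all). Over all genes 5652 were lower and 5479 higher, and 3858 and 7285 with library size alone as the scaling. These were Hoxb6 (-2.29 ± 0.67, adjusted p = 0.00661), Hoxa7 (-2.08 ± 0.69, adjusted p = 0.0159), Hoxb3 (-0.60 ± 0.21, adjusted p = 0.0187) and Hoxa6 (-1.94 ± 0.77, adjusted p = 0.0388), all by edgeR. For Hoxb6 the reads were 6, 2 and 1 against 24, 6 and 7, for Hoxa7 5, 0 and 2 against 14, 7 and 4, and for Hoxa6 2, 0 and 1 against 4, 4 and 2. With the mouse as a block Hoxa6 did not pass (adjusted p = 0.0586, edgeR) and Hoxa5 did (-0.81, adjusted p = 0.0418, edgeR). Hoxa6 was lost as well with DESeq2 (0.0711), and Hoxb3 with limma voom (0.058). The count depended on single libraries: it was 12 without CD24hi replicate 1, 1 without CD24hi replicate 2, 2 without CD24hi replicate 3 and 0 without alveolar replicate 1, where edgeR had 0 members at an unadjusted p under 0.05. Hoxb13, best known from the prostate and the tail, lies outside the naming rule but had reads in this gate alone, 6, 1 and 3 in CD24hi cells and 0 in the other 15 libraries.

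Noncoding genes lie between and across the Hox genes. Of 14 such counted genes 3 were tested, and all 3 were higher in EpCAM-negative cells than in lung epithelium, where 35.5% of all genes were higher and 33.4% lower (69.0% in all). Among the 3, Hoxaas3 had 53 reads in EpCAM-negative cells and 0 to 5 in each other population. It passed the filter only with the EpCAM-negative libraries, so its difference there was set by the filter. Mira, a long noncoding RNA of HoxA, was at 12.4 ± 0.773 RPKM (SD, n = 3) in EpCAM-negative cells (372 reads), at 0.44 to 0.81 in the lung epithelial gates (group means) and had 1 read in BSCs and 1 in non-basal cells. It was lower in tracheal than in lung epithelium by 4.99 ± 0.71 on the log2 scale (adjusted p = 5.65e-06, edgeR). 5730596B20Rik, whose exons overlap those of Hoxa3, had 162 and 135 reads in the tracheal groups and 231 in EpCAM-negative cells. It was higher in tracheal than in lung epithelium by 2.36 ± 0.44 (adjusted p = 0.000118, edgeR). Hotair of HoxC had no read in any library.

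The values of some members can include reads of such overlapping genes, since the strand setting of the counting is not given in the sources used here. By the GENCODE annotation of GRCm38, 52.9% of the exonic bases of Hoxb3 and 27.3% of those of Hoxb2 are shared with Hoxb3os on the other strand, and 27.1% of Hoxa3, 20.4% of Hoxa7, 16% of Hoxa4 and 15% of Hoxa2 are shared with other genes. Hoxa5, Hoxa6, Hoxb4, Hoxb6, Hoxb7, Hoxb8 and Hoxc4 share none in that annotation. The study's methods assigned reads with a RefSeq annotation, whose exons differ in length from these. The shares are thus those of GENCODE exons, and overlap on the counted bases was not measured.

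Hox proteins bind DNA together with TALE homeodomain cofactors, the Meis, Pbx and Pknox proteins. Meis1 was high in the populations with high summed Hox levels, with 25.9 ± 1.12 RPKM (SD, n = 3) in EpCAM-negative cells, 17.7 ± 1.37 in BSCs, 12.9 ± 0.519 in non-basal cells and 2.02 to 4.65 (group means) in the lung epithelial gates. It was higher in EpCAM-negative cells than in lung epithelium by 3.20 ± 0.15 (adjusted p = 2.3e-12, edgeR) and in tracheal than in lung epithelium by 2.43 ± 0.13 (adjusted p = 2.35e-11, edgeR). Pknox2 was at 16.3 RPKM in EpCAM-negative cells and 0.798 to 3.99 elsewhere (group means). Other cofactors went with other cells: Pbx4 was at 11.3 ± 1.04 RPKM in CD24hi cells and 0.146 to 2.95 elsewhere, and Pbx3 at 17.6 ± 2.7 in alveolar cells and 1.39 to 10.2 elsewhere. Of the 9 cofactor genes 6 were higher and 3 lower in EpCAM-negative cells than in lung epithelium (median log2 difference 1.09, all genes -0.01), where 35.5% of all genes were higher and 33.4% lower. In the trachea 5 were higher and 2 lower than in lung epithelium (0.69, all genes -0.10), against 33.2% and 39.7% of all genes. Between BSCs and non-basal cells 5 were higher and 1 lower, against 21.9% and 26.2%, among them Meis2 (1.07 ± 0.25, adjusted p = 0.0021, edgeR) and Pbx3 (1.55 ± 0.14, adjusted p = 6.02e-08, edgeR).

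Retinoic acid is a known inducer of 3′ Hox genes, and Polycomb and MLL complexes keep the clusters silent or active. Aldh1a2, a retinoic acid synthesising enzyme, was at 22 RPKM in EpCAM-negative cells, 0.0167 in BSCs and 0.166 in non-basal cells, whereas Rarb, a retinoic acid receptor and itself a target, was at 19.1 in CD24hi, 23.2 in CD24lo, 10.6 in BSCs, 9.59 in non-basal and 1.95 in EpCAM-negative cells. Alveolar cells had 0.418 RPKM of Aldh1a2 and 1.29 of Rarb. Of the other Aldh1a genes of the list, Aldh1a1 was at 465 RPKM in EpCAM-negative cells, 649 in BSCs and 3350 in non-basal cells. In the lung epithelium Aldh1a1 was at 1180 in CD24hi, 2050 in CD24lo and 71.9 in alveolar cells. Aldh1a3 was at 9.25 RPKM in EpCAM-negative cells, 2 in BSCs, 0.593 in non-basal cells and 0.0819 to 0.165 in the lung epithelial gates. Of 17 tested genes of the retinoic acid list 7 were higher and 3 lower in EpCAM-negative cells than in lung epithelium (median 0.84, all genes -0.01), where 69.0% of all genes passed (35.5% higher, 33.4% lower). In the trachea 9 were higher and 3 lower (median 0.28, all genes -0.10), where 73.0% of all genes passed (33.2% higher, 39.7% lower). Of 20 Polycomb and MLL genes 6 were higher and 4 lower in EpCAM-negative cells (median -0.05), a smaller share in all than the 69.0% of all genes, and 11 were higher and 4 lower in the trachea (median 0.26). Between BSCs and non-basal cells 8 of them were higher and 1 lower, against 21.9% and 26.2% of all genes, with Ezh2, which writes the silencing methyl mark, at 8.37 against 4.54 RPKM (0.88 ± 0.12, adjusted p = 1.13e-05, edgeR).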

How the data were processed

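RNA of 18 sorted libraries was analysed, 3 for each of 6 populations, grouped by the labels. Per the labels and the study's methods, the authors aligned reads to mm10, counted them per Entrez gene (featureCounts is named in the submitters' processing notes, with bcl2fastq 1.8.4) and deposited these counts without normalization beside the counted length of each gene. Per-sample columns left unused numbered 0, and 0 rows named no gene. The series' design text speaks of lung airway cells and does not mention trachea. The labels were followed.

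From the counts, RPKM and tests were computed in R 4.3.3. The 17989 genes whose CPM exceeded 0.2 in 3 or more libraries entered a quasi-likelihood test in edgeR 4.0.16 (glmQLFit, glmQLFTest) with TMM factors, in 1 fit of all 18 libraries. P-values were two-sided, adjusted by Benjamini-Hochberg over all genes tested and called at 0.05. Where text gives ± after a log2 difference it is the SE. Bounds against groups without reads used a floor of 3 reads over the group and cover counting error only. Members with a group mean of at least 1 RPKM were given in every library, and those of at least 0.2 were named. Hoxa9, Hoxb1, Hoxb9, Hoxb13, Hoxc5, Hoxc6 and Hotair fall outside this rule and were named after their values were seen. Of other lists, at most 3 genes per list and comparison were named by size of change among those called, with their levels in the other populations. Aldh1a1 and Aldh1a3 were given beside Aldh1a2 as the other Aldh1a genes of the retinoic acid list. The members and lists were chosen with earlier results of these data known.

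Same-numbered libraries come from the same mouse by the labels. Their deviations from the group means correlated at 0.12 to 0.34 in the trachea (3 pairs) and at -0.06 to 0.28 in the lung (18 pairs), and the mouse as a block was an alternative. Replicates differed by more than counting noise (chi-square per degree of freedom 3.5 to 39.6 over pairs of replicates). In BSCs, non-basal, CD24hi and CD24lo cells, pairs with replicate 1 had 21.1 to 39.6, and replicates 2 and 3 had 5.23 to 7.43. In alveolar cells, pairs with replicate 2 had 38.1 and 36.2, and the other pair had 5.7. EpCAM-negative pairs had 3.5 to 7.5. The script was tested on simulated data. Other alternatives were RLE scaling, library size alone, filters on low counts, limma 3.58.1 voom, DESeq2 1.42.0, fitting only the libraries compared, thinning the trachea to the lung's depth and leaving out each library. Promoter windows came from RefSeq.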

Additional observations from a re-analysis of the deposited data

How the results depend on the processing

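The counts of all genes called, both directions together, stayed within 1.5 times of those given under every alternative. Library size alone moved the split between directions, as given beside the comparisons among epithelial cells. For EpCAM-negative cells against lung epithelium the split of 6395 higher and 6012 lower became 6747 and 5564. The mouse as a block changed the call of Hoxb5 between BSCs and non-basal cells, of Hoxa5 and Hoxa6 between CD24hi and alveolar cells and of Hoxa3 between CD24hi and CD24lo cells, and no other call of a named member. Of 856 values of named members under alternatives other than leaving out a library, 796 kept direction and side of the threshold, 22 lost the call, 24 gained one and 14 changed sign, none of these a called value. Of 788 values with 1 library left out, 702 kept both, 38 lost the call, 21 gained one and 27 changed sign.

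Between BSCs and non-basal cells the count of Hox genes called, 0, became 5 with library size alone, a scaling that moved the median of all genes from -0.02 to 0.31, and 3 with limma voom, 3 with only the libraries compared, 1 with DESeq2 and 1 with the replicate block. Leaving out 1 library gave 0 to 1. Library size alone turned Hoxb2 to 0.14, Hoxb4 to 0.31 and Hoxb6 to 0.02, and thinning turned Hoxb7 to 0.56. Without single libraries Hoxb4 ran from -0.11 to 0.04 and Hoxa5 from -0.02 to 0.12.

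Between CD24hi and alveolar cells the count of 4 became 2 with library size alone (median of all genes 0.29) and 1 with only the libraries compared, and 0 to 12 without single libraries. Library size alone turned Hoxa3 to 0.05, Hoxa4 to 0.02, Hoxb4 to 0.05 and Hoxb5 to 0.04, and without single libraries Hoxa3 ran from -1 to 0.04, Hoxa4 from -1.39 to 0.11, Hoxb4 from -1.22 to 0.09 and Hoxb5 from -1.15 to 0.03. Between CD24hi and CD24lo cells the count of 6 became 3 with only the libraries compared and 4 to 11 without single libraries. Limma voom turned Hoxa6 to -0.16, and without single libraries it ran from -0.72 to 0.73 and Hoxb6 from -2.16 to 0.10. Between CD24lo and alveolar cells the count was 2 to 5 without single libraries, and Hoxa5 ran from -0.43 to 0.47, Hoxb5 from -0.16 to 0.51, Hoxb7 from -0.39 to 0.36 and Hoxb8 from -0.25 to 0.49.

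For Hoxb5, BSCs against alveolar cells gave 0.01 with RLE scaling, 0.38 with library size alone, 0.01 with DESeq2, 0.04 with only the libraries compared and -0.22 to 0.10 without single libraries. For Hoxb6, tracheal against lung epithelium gave 0.06 with limma voom and -0.27 to 0.30 without single libraries. Leaving out 1 library gave 11 to 12 members called for tracheal against lung epithelium, 11 to 13 for BSCs against alveolar cells and 14 to 15 for EpCAM-negative cells against lung epithelium, with Hoxa6 and Hoxb8 included. The cause of these changes was not tested. Depth limits the lung epithelial values, where the 38 Hox genes together had 108 to 488 reads a library.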
